A study of Mus musculus with 8 samples.

Results

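The genes described here encode ligands and receptors of the fibroblast growth factor (FGF) family. They were chosen by name, as the ligands Fgf1, Fgf2, Fgf7, Fgf10, Fgf18 and Fgf21 and the receptors Fgfr1, Fgfr2, Fgfr3 and Fgfrl1, which makes 10 of the 40840 genes in the deposited tables. They were followed in primary myofibroblastic hepatic stellate cells (pMF-HSCs) treated or not with an inhibitor of O-GlcNAc transferase (OGT), the enzyme that attaches the sugar O-GlcNAc to intracellular proteins. In a healthy liver, stellate cells lie around the sinusoids and store retinoids, and on injury they become the main source of scar-forming myofibroblasts. All 8 libraries came from wild-type male C57BL/6J mice aged 15 to 18 weeks, whose quiescent stellate cells were left to activate on plastic for 7 days in DMEM with serum. The control group (n = 4) then received DMSO and the OGTi group (n = 4) received OSMI-1 at 50 µM, each for 24 h. Cells of this kind are a culture model of activation, grown after purification from the other cells of the liver, whose markers are given below.

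FGF ligands bind receptor tyrosine kinases at the cell surface together with heparan sulfate, and the activated receptor recruits the docking protein FRS2 to switch on the RAS-ERK cascade. ERK in turn induces feedback inhibitors such as the Sprouty proteins and the phosphatase DUSP6, together with transcription factors of the ETV group. FGF1 and FGF2 act locally and lack a classical secretion signal, whereas FGF21 is a hormone that needs the co-receptor beta-Klotho. In the liver, FGF2 is known as a growth factor for stellate cells and their myofibroblast progeny.

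Libraries held 30068876 to 37372420 expected counts, so that 3 counts, taken as the limit that a count of 0 allows, corresponded to 0.0740 to 0.0967 CPM, a count scaled to the TMM-adjusted library size. Detected genes numbered 19035 to 20293 in 7 libraries and 23746 in OGTi replicate 4. Control replicate 4 and OGTi replicate 1 had 206 and 168 genes at least 4-fold below every other library of their group, against 0 to 12 elsewhere. The 14 stellate cell and myofibroblast markers summed to 4737 to 8320 TPM, a length-scaled level, in control and 4094 to 9291 in OGTi cultures, with Lrat and Pdgfrb the 2 called changed, both lower. Endothelial markers summed to at most 3.01 TPM and hepatocyte markers to 0.06 to 0.59 TPM in control and 0.59 to 1.70 TPM in OGTi, with 2 hepatocyte markers at 0 throughout. Macrophage markers summed to 49.8 to 181 TPM in control and 90.2 to 232 in OGTi, mostly Lyz2 and Cd68. Of these 8 markers, Ptprc, Adgre1 and Clec4f stayed below 1 TPM, Csf1r measured 2.22 to 6.66 TPM, and Cd5l and C1qa reached 6.21 and 5.57 TPM, with their higher values in replicates 3 and 4 of both groups. Cholangiocyte markers, mostly Krt19, summed to 87.3 to 141 and 57.2 to 84.3 TPM, and mesothelial markers to 0.95 to 12.5 and 0.72 to 13.9 TPM. Portal fibroblast markers summed to 67.2 to 184 TPM in control and 6.80 to 56.0 in OGTi, nearly all of it Fbln2, with Clec3b at 0 and Gli1 below 1 TPM. The sums of portal fibroblast, cholangiocyte and endothelial markers were lower in every OGTi library than in any control library. In these lists, Fbln2 (3.89-fold, adjusted p = 0.000834), Tek (10.2-fold, 0.00235), Lyve1 (9.02-fold, 0.0340) and Krt19 (1.57-fold, 0.0462) were called lower. Single markers were also called higher with OGTi, namely Sox9 of the cholangiocyte list (8.19-fold, adjusted p = 0.00858), Cyp2e1 of the hepatocyte list (15.7-fold, adjusted p = 0.00591) and Cd68 of the macrophage list (2.83-fold, adjusted p = 0.00154). Cyp2e1 stayed low, at mean levels of 0.05 TPM in control and 0.745 TPM in OGTi. The part of these markers in the FGF results was not tested. In bulk RNA, fewer cells of a type and less RNA per cell cannot be told apart. The transcript of the inhibited enzyme, Ogt, gave a log2 fold change of -0.16 ± 0.24 (SE, adjusted p = 0.714).

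With OGTi, the expression of the 2 locally acting ligands that pMF-HSCs expressed most, Fgf2 and Fgf1, fell, while no FGF receptor passed the test. Of the 10 genes, 9 had the total of 10 counts needed for testing, and 2 of these were called changed at an adjusted p of at most 0.05, both lower. Across all 19963 genes tested, 3666 (18.4%) were called, 1623 (8.13%) higher and 2043 (10.2%) lower. Higher genes thus made up 44.3% of those called, a share that fell to 30.1% with scaling by library totals and to 25.7% and 26.3% on the 2 TPM scales, and that rose to 54.2% with upper-quartile scaling and 52.4% with the length trend removed. The 2 called ligands were also the 2 members whose control and OGTi libraries did not overlap, a pattern found in 4697 (23.5%) of all genes tested. The share of called members, 22.2% of 9, was thus near that of all genes. The median log2 fold change of the 9 members was -0.18, against 0.01 over all genes tested. None was called higher, although 1 was higher at an unadjusted p under 0.05 and by DESeq2, namely Fgf21.

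**Figure D1:**
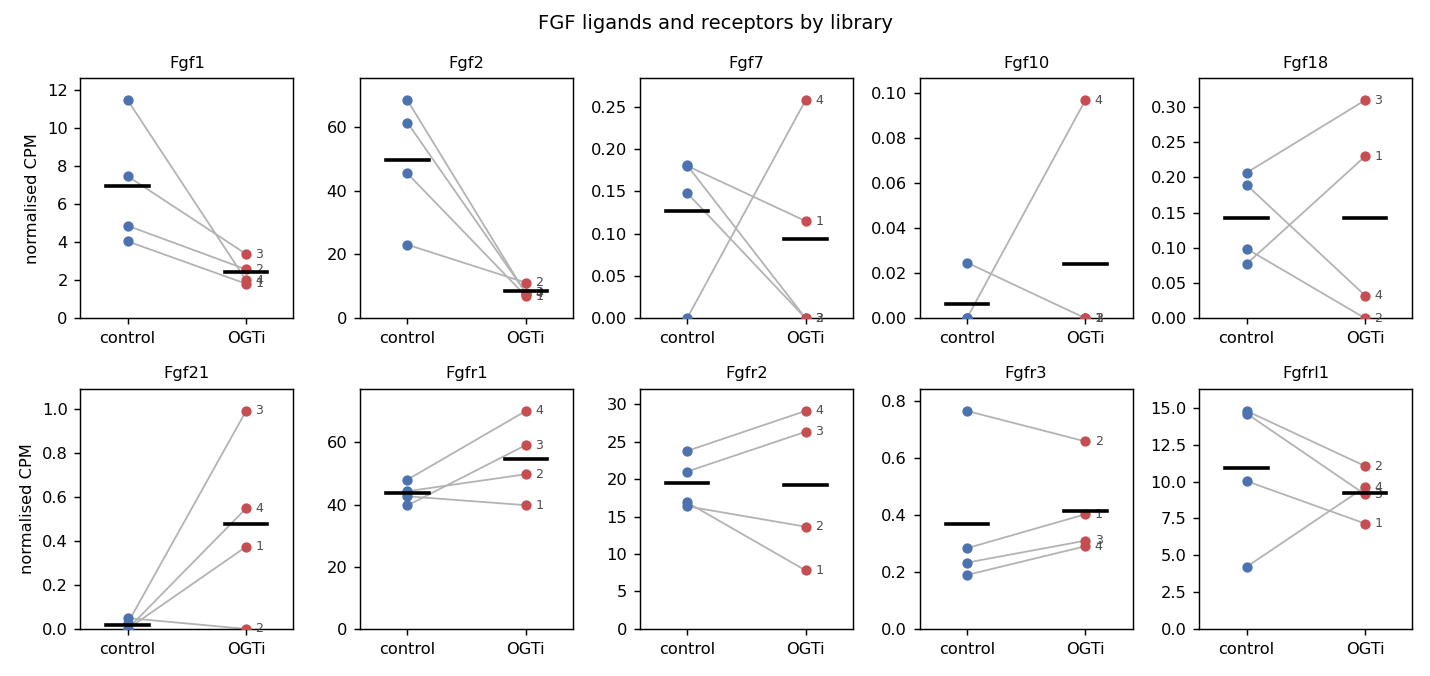
TMM-normalised CPM of the 10 FGF ligands and receptors on linear axes that start at 0 and differ between panels. Points are libraries (blue, 4 control; red, 4 OGTi), grey lines join control and OGTi libraries of the same replicate number, printed at the right, and black bars are group means. The 4 OGTi points of Fgf2 and of Fgf1 sit below all 4 control points, while the groups overlap in the other panels.

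Fgf2 (basic FGF), a mitogen for fibroblast-like cells, was the most affected of the tested members by p-value. Control libraries 1 to 4 measured 45.4, 23.1, 61.3 and 68.4 CPM, and OGTi libraries 1 to 4 measured 6.95, 11.2, 8.02 and 7.67 CPM. Every OGTi library lay below every control library, and the control libraries varied more among themselves than the OGTi libraries did. Fgf2 was 5.59-fold lower with OGTi (log2 fold change -2.48 ± 0.36, SE, adjusted p = 0.00156), lower in 4 of 4 pairs, with an approximate 95% interval of -3.27 to -1.69. On the length-scaled measure it went from 18.1 ± 7.64 to 2.50 ± 0.668 TPM (SD, n = 4). The call held in 14 of 14 alternative analyses, with log2 fold changes from -2.91 to -2.18.

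The gene lies on the plus strand at chr3:37402473-37464257 (GRCm39, GENCODE vM39). The 250 bases before its annotated start are shown because Fgf2 had the lowest p among the members, with none in capitals because no searched motif was found.
Fgf2 upstream, chr3:37402223-37402472, plus strand: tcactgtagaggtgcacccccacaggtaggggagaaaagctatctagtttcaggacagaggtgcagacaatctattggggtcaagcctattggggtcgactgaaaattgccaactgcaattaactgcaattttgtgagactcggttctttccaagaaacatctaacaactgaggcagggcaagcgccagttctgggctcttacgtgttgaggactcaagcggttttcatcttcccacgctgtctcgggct
This stretch had a GC content of 49.6%. It was searched on both strands for 3 motifs chosen after the results were known, namely the TEAD motif GGAATG, the AP-1 motif TGANTCA and the C/EBP-ATF motif TGATGNAA. These letters occur in 12.6%, 6.75% and 3.45% of the 250-base windows upstream of 32851 RefSeq starts (GRCm38.p6). The window shown precedes the GENCODE start of Fgf2, whereas these rates are for RefSeq starts. The RefSeq window of Fgf2 (chr3:37402552-37402801, GRCm39) is a different stretch, with a GC content of 62.4% and none of the 3 motifs. The lack of these motifs in either window says nothing about the factors.

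Fgf2 shares its locus with a pair of genes on the opposite strand, which are named here for their position and fall outside the rule for named genes. Fgf2os (chr3:37389481-37403889) is a long non-coding RNA whose gene overlaps the start of Fgf2. Nudt6 (chr3:37458547-37474360) encodes a Nudix hydrolase and overlaps the far end of Fgf2. Fgf2os measured 1.98, 1.65, 1.70 and 1.84 CPM in control and 0.718, 0.282, 0.340 and 0.387 CPM in OGTi libraries 1 to 4. Nudt6 measured 13.5, 8.88, 18.6 and 20.1 CPM in control and 8.13, 6.86, 4.95 and 4.25 CPM in OGTi. The groups did not overlap for either gene, and both were lower in 4 of 4 pairs. The log2 fold change was -2.12 ± 0.40 for Fgf2os (adjusted p = 0.00559) and -1.31 ± 0.34 for Nudt6 (adjusted p = 0.0241). The call of Nudt6 was lost when replicate 3 (adjusted p = 0.117) or 4 (0.116) was left out, and on log2(TPM + 1) (0.0669) and log2(TPM + 0.1) (0.0573). The libraries were stranded and counted with a strand setting, and the part of reads from the other strand was not tested.

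**Figure D2:**
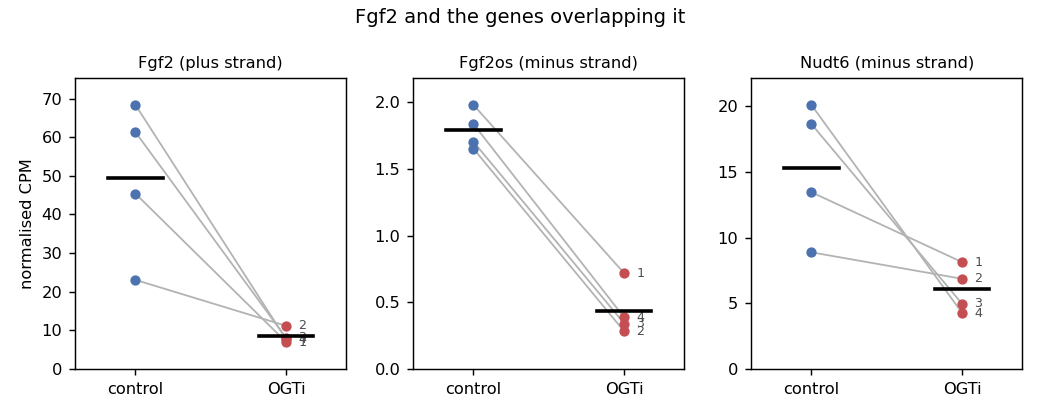
TMM-normalised CPM of Fgf2 and of the opposite-strand genes Fgf2os and Nudt6, on linear axes from 0 that differ between panels. Points are the 4 control (blue) and 4 OGTi (red) libraries, grey lines join equal replicate numbers and black bars are means; all 3 genes are lower in every pair.

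Fgf1 (acidic FGF), a ligand able to bind all the FGF receptor tyrosine kinases, was expressed at a lower level. Its gene lies on the minus strand at chr18:38971717-39077186 (GRCm39). Control libraries 1 to 4 measured 4.04, 4.86, 7.46 and 11.5 CPM, and OGTi libraries 1 to 4 measured 1.81, 2.57, 3.37 and 2.00 CPM. The groups did not overlap, though control replicate 1 and OGTi replicate 3 came close. Fgf1 was 2.69-fold lower with OGTi (log2 fold change -1.43 ± 0.32, adjusted p = 0.0131), lower in 4 of 4 pairs, with an approximate 95% interval of -2.14 to -0.71. Control replicate 4 was the highest library, and without replicate 4 the call was lost (-1.06, adjusted p = 0.0630). In TPM, Fgf1 measured 2.96 ± 1.51 in control and 0.775 ± 0.247 in OGTi cultures.

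The mean transcript length that RSEM assigned to Fgf1, which shifts when the mix of its transcripts does, was 4420, 4437, 4337 and 4250 bases in control and 4499, 4753, 4653 and 4641 bases in OGTi libraries. All OGTi values were thus above all control values, by 275 bases on average. They rest on only 62 to 109 counts per OGTi library for a gene with 18 transcripts. How often lengths separate in this way over all genes was not counted. No test was made, since the comparison of lengths was limited to genes above 1 TPM in every library. For the 4 genes that met this limit, adjusted p-values by an exact permutation test were 0.886 for Fgf2, 0.886 for Fgfr1, 0.857 for Fgfr2 and 0.686 for Fgfrl1.

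By the fixed rule of likeness, the 2 genes whose log2 CPM followed each called ligand most closely were identified among 11052 genes over the 8 libraries. For Fgf2 they were Gnb4, which encodes a G-protein beta subunit (Pearson r = 0.994), and Pde4b, a cyclic AMP phosphodiesterase (r = 0.991). For Fgf1 they were Spred3, a Sprouty-related ERK pathway inhibitor (r = 0.984), and Hmgxb4, an HMG-box protein (r = 0.982). The points share libraries, depth and the treatment, so that these values are descriptions. All 4 genes were lower with OGTi, with log2 fold changes of -0.86 ± 0.22 for Gnb4, -2.39 ± 0.27 for Pde4b, -1.26 ± 0.30 for Spred3 and -1.22 ± 0.28 for Hmgxb4 (adjusted p = 0.0224, 0.000503, 0.0165 and 0.0132). Without replicate 4 the calls of Gnb4 (adjusted p = 0.0966), Spred3 (0.0896) and Hmgxb4 (0.0744) were lost, and so were those of Gnb4 (0.115) and Spred3 (0.0646) without replicate 3.

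Fgf7, Fgf10 and Fgf18, paracrine ligands that mostly signal from mesenchyme to epithelium or to skeletal cells, were at or near the detection limit. Fgf7 had 7, 6, 7 and 0 counts in control and 4, 0, 0 and 8 counts in OGTi libraries 1 to 4. Fgf18 had 3, 4, 8 and 7 counts in control and 8, 0, 10 and 1 counts in OGTi. Zeros and low counts thus stood in both groups, and neither gene passed the test (Fgf7, log2 fold change -1.06 ± 1.72, adjusted p = 0.729; Fgf18, -0.52 ± 1.18, adjusted p = 0.815). Their 95% intervals, -4.89 to 2.77 and -3.14 to 2.11, leave the direction of either gene undetermined at this depth. For Fgf7 the estimate ranged from -2.57 without replicate 4 to -0.051 without replicate 3. Fgf10 had 1 count in control and 3 counts in OGTi libraries altogether and was not tested.

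Fgf21, a stress-responsive hormone of liver and other tissues (chr7:45263301-45266963, minus strand), was close to absent from control libraries and present in 3 of 4 OGTi libraries. It had 0, 2, 1 and 0 counts in control and 13, 0, 32 and 17 counts in OGTi libraries 1 to 4. OGTi replicate 2, with 0 counts, overlapped the control libraries, and the other 3 OGTi libraries lay above them. Summed over groups, 3 counts stood against 62, a ratio of 24.6 after scaling, with an exact 95% interval of 8.05 to 123 that covers counting error only. With the spread between replicates taken into account, the log2 fold change was 3.99 ± 1.46 and did not pass the test (adjusted p = 0.0880). The test was passed in 4 of 14 alternatives. These were no replicate block (adjusted p = 0.0378), no filter on low counts (0.0168), DESeq2 (0.0116) and leaving out replicate 2 (0.0129). The last of these drops the OGTi library with 0 counts. Without replicate 1, 3 or 4 the test was not passed (adjusted p = 0.232, 0.315 and 0.237). Even with OGTi, Fgf21 reached only 0.903 ± 0.801 TPM.

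The 250 bases before the RefSeq start of Fgf21 are shown because, of the 8 members with a window in the RefSeq promoter table (GRCm38.p6), only Fgf21 held any of the 3 motifs. The capitals mark a match to the C/EBP-ATF motif TGATGNAA on the opposite strand, read here as TTGCATCA and beginning 139 bases before the start.
Fgf21 upstream, chr7:45264915-45265164, minus strand: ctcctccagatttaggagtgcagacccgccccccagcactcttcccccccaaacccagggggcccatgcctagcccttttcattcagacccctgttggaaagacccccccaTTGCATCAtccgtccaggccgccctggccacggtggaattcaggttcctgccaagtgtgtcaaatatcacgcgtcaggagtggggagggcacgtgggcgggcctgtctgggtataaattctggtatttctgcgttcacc
The window was placed in GRCm39 by its single exact match on the chromosome, has a GC content of 59.6% and lies inside the GENCODE span of Fgf21. The match is a description of letters found in 3.45% of such windows, and no binding was measured. That rate is for a single motif in a single window, while 3 motifs were searched in the windows of 8 members.

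Of the receptors, Fgfr1, the main receptor tyrosine kinase for FGF2 in mesenchymal cells, was the most expressed (chr8:26003670-26066824, plus strand). Control libraries measured 42.7, 44.3, 39.7 and 48.0 CPM, and OGTi libraries measured 39.8, 49.8, 59.2 and 70.1 CPM. OGTi replicates 2 to 4 lay above all control libraries while OGTi replicate 1 lay among them. The log2 fold change was 0.30 ± 0.22 (adjusted p = 0.384, 95% interval -0.18 to 0.78). On the TPM scale the group means were alike, at 16.1 ± 1.21 in control and 16.4 ± 4.65 in OGTi, and the estimate turned to -0.024. With the trend of fold change on gene length removed, it rose to 0.59 and was called (adjusted p = 0.0462).

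Fgfr2, a receptor with isoforms for epithelial and mesenchymal ligands, measured 16.9, 16.4, 21.03 and 23.8 CPM in control and 7.81, 13.7, 26.3 and 29.1 CPM in OGTi libraries. OGTi libraries spread on both sides of the control ones, with replicates 1 and 2 below and replicates 3 and 4 above. The log2 fold change was -0.18 ± 0.28 (adjusted p = 0.715, 95% interval -0.80 to 0.44), and it turned to 0.12 without replicate 1. Fgfr3, a receptor best known in cartilage, had 11, 31, 9 and 7 counts in control and 14, 21, 10 and 9 counts in OGTi libraries. Replicate 2 was highest in both groups, and the log2 fold change was 0.30 ± 0.56 (adjusted p = 0.766).

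Fgfrl1 encodes a receptor-like protein that binds ligands but lacks the kinase domain (chr5:108840206-108858366, plus strand). It measured 10.03, 14.8, 14.6 and 4.22 CPM in control and 7.15, 11.1, 9.13 and 9.63 CPM in OGTi libraries. Control replicate 4, a library with many genes below its group, was the lowest of all 8, and the other 3 pairs were lower with OGTi. The log2 fold change was -0.12 ± 0.33 (adjusted p = 0.845, 95% interval -0.85 to 0.60), and it was -0.52 without replicate 4. Gm42151, which overlaps Fgfrl1 on the opposite strand and was named for that position, was higher with OGTi in 4 of 4 pairs (log2 fold change 1.06 ± 0.27, adjusted p = 0.0229).

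**Figure D3:**
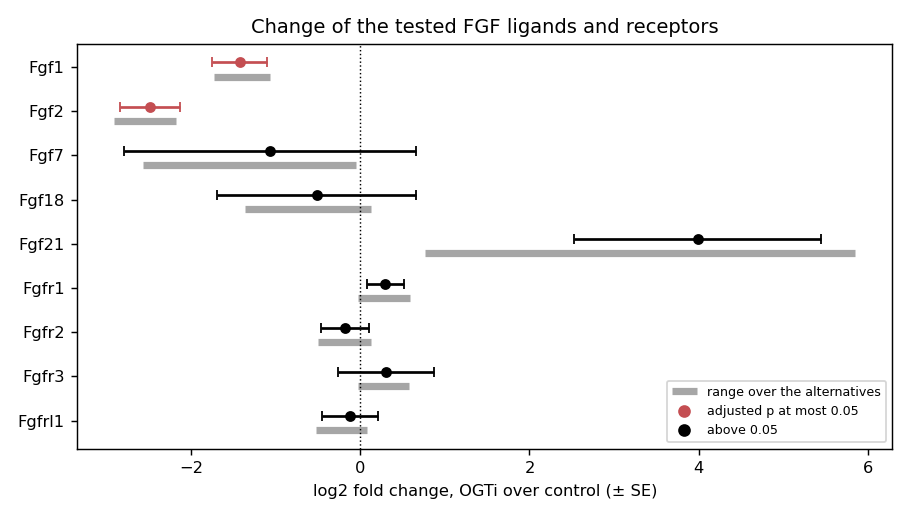
Log2 fold change of OGTi over control for the 9 tested members (points with bars of 1 SE; red where the adjusted p was at most 0.05), with grey bars for the range over the alternative analyses. Fgf2 (-2.48) and Fgf1 (-1.43) are the called members; Fgf21 has the widest grey range, and those of Fgfr1, Fgfr2, Fgfr3, Fgfrl1 and Fgf18 cross 0.

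Set side by side by length-scaled level, Fgf2 (18.1 TPM) and Fgfr1 (16.1 TPM) came first in control cultures, with overlapping libraries. They were followed by Fgfrl1 (8.48 TPM) and Fgfr2 (7.15 TPM), which overlapped each other, and then by Fgf1 (2.96 TPM), while the other 5 members were at most 0.188 TPM. In OGTi cultures Fgfr1 (16.4 TPM) stood alone at the top. Fgfrl1 (5.83 TPM), Fgfr2 (5.71 TPM) and Fgf2 (2.50 TPM) followed with overlap between neighbours, then Fgf21 (0.903 TPM) and Fgf1 (0.775 TPM), also overlapping. The other 4 members were at most 0.153 TPM.

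Of the summed TPM of the kinase receptors Fgfr1, Fgfr2 and Fgfr3, Fgfr1 held 71.4%, 72.1%, 65.4% and 66.9% in control and 82.9%, 77.7%, 69.1% and 70.7% in OGTi libraries. The groups overlapped, yet the OGTi library was the higher in 4 of 4 pairs. Means were 68.96% ± 3.30 and 75.1% ± 6.42 (SD, n = 4), a difference that an exact two-sided permutation test did not call (p = 0.171, adjusted p = 0.3 over 3 receptors). The exact paired test gave p = 0.125, the smallest it can give with 4 pairs. Fgfr2 held 30.3% ± 3.72 in control and 24.2% ± 6.78 in OGTi (exact p = 0.2, adjusted p = 0.3). Fgfr3 held 0.723% ± 0.544 and 0.760% ± 0.426 (exact p = 0.914).

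**Figure D4:**
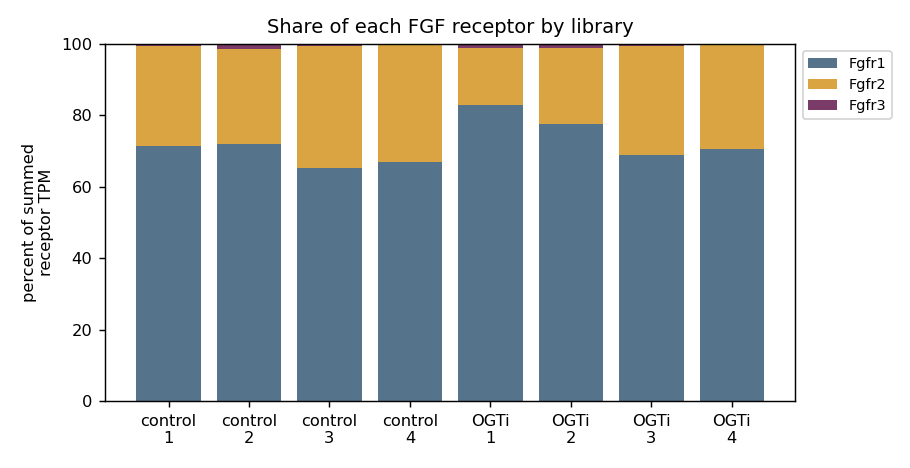
Percent of the summed TPM of Fgfr1, Fgfr2 and Fgfr3 taken by each receptor, as stacked bars from 0 to 100 for the 4 control and 4 OGTi libraries. Fgfr1 holds most of the receptor TPM in every library, from 65.4% in control replicate 3 to 82.9% in OGTi replicate 1.

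None of the other FGF ligands was called, against 18.4% of all genes tested. Of these 16 genes, 8 had enough counts to be tested, and their median log2 fold change was 0.48. All 8 were at low levels, with means of at most 0.78 TPM in either group. By edgeR, 1 of the 8 had an unadjusted p under 0.05, the intracellular FGF homologue Fgf12 (-0.85 ± 0.36, adjusted p = 0.133), named after its value was seen, and DESeq2 called 0. Fgfr4 and the Klotho co-receptors formed a list of 3, of which Fgfr4 and Klb were tested and 0 were called, with 1 at an unadjusted p under 0.05 and 1 called by DESeq2. That gene was Klb, which encodes beta-Klotho, the co-receptor for FGF21. Klb measured 0.180, 0.222, 0.0258 and 0.108 CPM in control and 0.632, 0.501, 0.402 and 0.741 CPM in OGTi libraries. All OGTi libraries lay above all control ones, with a log2 fold change of 2.21 ± 0.69 that just missed the threshold (adjusted p = 0.0519) and passed it in 8 of 14 alternatives. Klb did not pass when any replicate was left out (adjusted p = 0.0688 to 0.164) or with no replicate block (0.0535). Its level stayed low, at 0.055 and 0.190 TPM. Fgfr4, the main FGF receptor of hepatocytes, had 30 counts in control and 25 in OGTi libraries (0.29 ± 1.03, adjusted p = 0.886).

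Of the 23 genes for heparan sulfate carriers, their modifying enzymes and proteins that bind FGFs or their receptors, 5 were called, 1 higher and 4 lower, with a median of -0.09. The share of 21.7% was near the 18.4% of all genes. The syndecans Sdc3 and Sdc1, which carry heparan sulfate at the cell surface, fell, with log2 fold changes of -1.06 ± 0.23 (adjusted p = 0.0105) and -1.13 ± 0.26 (adjusted p = 0.0142). Hs6st2, a heparan sulfate 6-O-sulfotransferase, fell (-1.53 ± 0.32, adjusted p = 0.00925), and so did Sulf1, which removes such sulfate groups (-1.76 ± 0.46, adjusted p = 0.0253) and was named after its value was seen. Fgfbp1, a carrier that releases FGFs from the matrix, rose from 4 counts in all control libraries to 61 in OGTi (4.21 ± 0.98, adjusted p = 0.0150). The call was lost without replicate 4 for Fgfbp1 (adjusted p = 0.0528), Sdc3 (0.0545) and Sulf1 (0.114), and for Sdc3 also without replicate 3 (0.0746) and with the length trend removed (0.0538). For Sdc1 it was lost without replicate 2 (0.0637) or replicate 3 (0.0663). With no replicate block, Sdc1 (0.0527), Hs6st2 (0.0617) and Sulf1 (0.115) were not called.

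The 18 genes for docking proteins and the RAS-ERK cascade had a median of 0.05, and 2 were called, both lower (11.1%). Of all genes tested, 18.4% were called and 10.2% were called lower. Braf, which encodes a RAF kinase, fell from 6.03 ± 1.55 to 1.44 ± 0.672 TPM (-1.93 ± 0.35, adjusted p = 0.00472). Nras, which encodes a RAS GTPase, fell from 80.3 ± 8.96 to 35.8 ± 5.15 TPM (-0.84 ± 0.20, adjusted p = 0.0153), a call lost without replicate 3 (adjusted p = 0.0728), without replicate 4 (0.0697) and with the length trend removed (0.0935). Frs2, which encodes a docking protein of FGF receptors, was not called (-0.40 ± 0.35, adjusted p = 0.474).

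Of the 18 target and feedback genes of the FGF-ERK cascade, 10 (55.6%) were called, against 18.4% of all genes, with 6 lower and 4 higher and a median of -0.21. The list was drawn up with earlier results of these data known, so these shares are a description and not an independent contrast. The genes called lower included the feedback inhibitors Spry1, Spry2, Dusp6 and Spred3, but not all inhibitors of the list. Spry1 measured 29.2, 31.2, 21.4 and 20.2 CPM in control and 6.18, 6.55, 7.15 and 5.22 CPM in OGTi libraries (-2.01 ± 0.24, adjusted p = 0.000607). Spry2 measured 137, 62.6, 120 and 98.3 CPM in control and 38.1, 32.5, 31.6 and 25.4 CPM in OGTi (-1.67 ± 0.24, adjusted p = 0.00156). Groups did not overlap for either of these Sprouty genes. Dusp6, the ERK-specific phosphatase, measured 266, 180, 209 and 283 CPM in control and 115, 88.8, 93.3 and 102 CPM in OGTi, again without overlap (-1.22 ± 0.19, adjusted p = 0.00229). Spry4 (-0.65 ± 0.24, adjusted p = 0.0832) and Etv4 (-1.18 ± 0.37, adjusted p = 0.0503) did not pass the test, although each was lower in 4 of 4 pairs, and Etv5 gave 0.29 ± 0.36 (adjusted p = 0.639). Etv4 passed in 5 of 14 alternatives and Spry4 in 2. Ccnd1, which encodes the G1 cyclin D1, fell (-2.22 ± 0.34, adjusted p = 0.00218), as did the transcription factor gene Etv1 (-1.84 ± 0.35, adjusted p = 0.00599) and Spred3, whose values are given above.

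The genes called higher were immediate early and AP-1 genes and a further phosphatase. Fos measured 34.0, 28.2, 37.6 and 46.8 CPM in control and 119, 65.8, 127 and 174 CPM in OGTi libraries (1.67 ± 0.21, adjusted p = 0.000876). Dusp5, a nuclear ERK phosphatase, rose (1.497 ± 0.227, adjusted p = 0.00197), as did Fosl1, which encodes the AP-1 subunit FRA-1 (1.12 ± 0.22, adjusted p = 0.00623, or 0.104 with no replicate block). Egr1, an immediate early transcription factor gene, measured 301, 117, 239 and 111 CPM in control and 591, 354, 1480 and 2186 CPM in OGTi (2.34 ± 0.47, adjusted p = 0.00734). The OGTi libraries of Egr1 all exceeded the control ones but differed several-fold from each other. Egr1 and Etv1 were named after their values were seen. Genes of this list thus moved in both directions, and ERK activity itself was not measured.

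**Figure D5:**
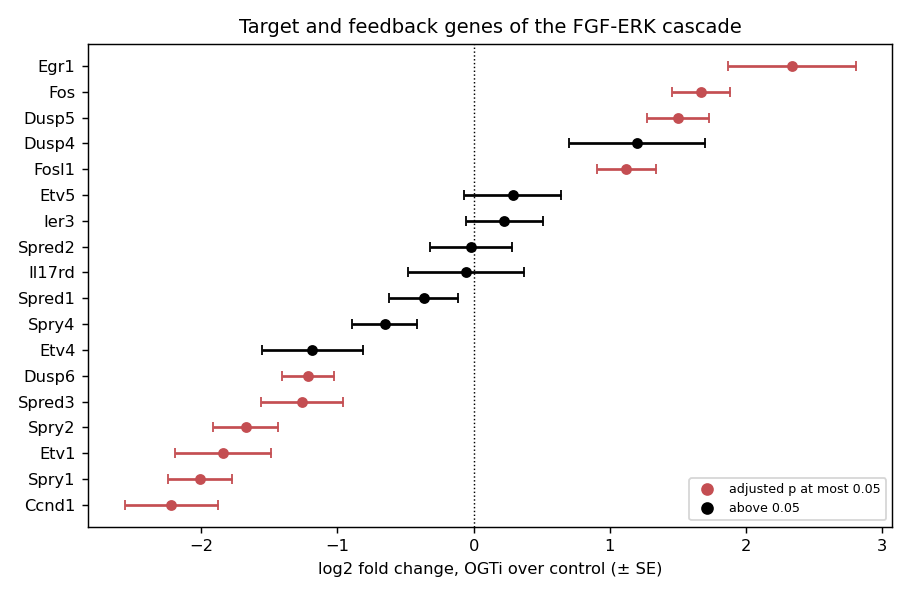
Log2 fold change of OGTi over control for the 18 target and feedback genes of the FGF-ERK cascade, with bars of 1 SE; red points had an adjusted p of at most 0.05. Ccnd1, Spry1, Etv1, Spry2, Spred3 and Dusp6 lie below 0 and Egr1, Fos, Dusp5 and Fosl1 above it.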

How the data were processed

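RNA-seq was performed by the authors on stranded, paired-end libraries of polyadenylated RNA from 4 control and 4 OGTi cultures (4 independent experiments, so that p-values reflect the spread between these). Per the study's methods and the submitters' processing notes, reads were aligned with Bowtie2 2.3.5.1 to mm39 (GRCm39) and counted with RSEM 1.3.1. The deposited tables, 1 per library, hold expected counts, estimated by RSEM and not necessarily whole. They also hold TPM, which the authors' RSEM run scaled by gene length and depth, and the mean transcript length in bases. Of the genes detected in a library, 0.251% to 0.978% had a fractional count. A deposited comparison table with whole counts, normalized counts, fold changes and p-values was not used. The number of other per-sample columns left unused was 0.

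After rounding of the expected counts, edgeR 4.0.16 (R 4.3.3) was used for differential expression. Genes with a total of at least 10 counts were kept, libraries were TMM-scaled, and quasi-likelihood tests (glmQLFit, glmQLFTest) were run with replicate number as a block. The Benjamini-Hochberg adjustment was made over the 19963 genes tested, with genes called at an adjusted p of at most 0.05. Values after ± are SE for log2 fold changes and SD for levels. The biological coefficient of variation was 0.342. At 30068876 to 37372420 counts per library, genes of few counts were measured with low precision. The exact interval of the Fgf21 count ratio and the floors of counts cover counting error only. Intervals of log2 fold changes also take in the spread between replicates. The procedure was tested on simulated data.

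The study's methods pair control and treated samples of the same replicate. Deviations from the group means correlated at 0.187, 0.276, 0.210 and 0.445 across genes for replicates 1 to 4, and at -0.511 to 0.284 for other combinations. Receptor shares and RSEM lengths were compared by exact permutation over 70 regroupings, where the smallest p is 0.0286. Alternatives were upper-quartile, RLE and library-total scaling, no replicate block, no filter or edgeR's filterByExpr, DESeq2 1.42.0, limma-trend (limma 3.58.1) on log2(TPM + 1) and log2(TPM + 0.1), removal of the trend of fold change on length, and leaving out each replicate.

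The members, lists and motifs were chosen with earlier results of these data known. Named were all members, in each pathway list the 3 called genes of lowest p in each direction, Fgfr4, Klb, Frs2, Spry2, Spry4, Dusp6, Etv4 and Etv5, and for each called member the 2 genes of highest Pearson correlation in log2 CPM (prior count 2, mean log2 CPM of at least 1). Gene positions came from GENCODE vM39.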

Additional observations from a re-analysis of the deposited data

Results flagged for a closer look

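In 4 of 34 groups of libraries examined for the FGF genes, 1 library stood apart from the other 3 by Dixon's test, where chance gives about 1 in 20 groups, or 1.7 here. Fgf10 measured 0.0247 CPM in control replicate 2 (a single count) and 0.0967 CPM in OGTi replicate 4 (3 counts), with 0 in the other libraries of each group. Where the other libraries are at 0, any count is set apart by this test, so the chance rate does not hold for Fgf10. Fgfr3 measured 0.765 CPM in control replicate 2, against 0.189 to 0.283 CPM in the other control libraries. The RSEM length of Fgfr1 was 4926.67 bases in control replicate 3, against 4933.68 to 4934.53 bases in the other control libraries. None of these values belongs to a gene that was called changed.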

How the results depend on the processing

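Fgf2 and Fgf1 were lower and called in all alternatives run, apart from Fgf1 without replicate 4. Leaving out each replicate gave -1.57 to -1.06 for Fgf1, -2.57 to -0.051 for Fgf7, -1.36 to 0.13 for Fgf18, 3.37 to 5.85 for Fgf21, -0.35 to 0.12 for Fgfr2, -0.52 to 0.078 for Fgfrl1, -0.29 to 1.28 for Fgfr4 and -0.15 to 0.65 for Etv5 (log2 fold changes). It left 1 to 3 members called (0 to 1 higher, 1 to 2 lower) and 1905 to 3124 of all genes (843 to 1433 higher, 1062 to 1744 lower). It also left 2 to 5 of the heparan sulfate list (0 to 1 higher, 2 to 4 lower) and 1 to 2 of the docking and cascade list (1 to 2 lower). Differences ranged from -0.082 to 0.14 percentage points for the Fgfr3 share, -148.7 to 171.7 bases for the Fgf2 length and -2.45 to 2.59 bases for the Fgfr1 length, which was -1.61 bases by group medians. With no replicate block, 2991 genes and 3 members were called, 1 member higher, Fgf21 (4.41), and Fgf18 turned to 0.0080, while 2 of the heparan sulfate list were called (1 lower). Fgf21 was also called with no filter on low counts (3.98) and by DESeq2 (4.74), each giving 1 member called higher. Removing the length trend called 1 member higher, Fgfr1 (0.59), turned Fgfr2 to 0.10 and left 1 cascade gene lower and 1 higher. On log2(TPM + 1) and log2(TPM + 0.1), Fgfr1 turned to -0.024 and -0.029, Fgfr3 to -0.013 and -0.023, Fgfr4 to -0.024 and -0.088 and Etv5 to -0.0066 and -0.023, with 3456 and 3473 genes lower. Upper-quartile scaling turned Fgfrl1 to 0.0056. Library totals and log2(TPM + 0.1) each called 8 of the heparan sulfate list (7 lower). Of the docking and cascade list, 4 were called with no filter (2 higher), and 1 was called higher by upper-quartile scaling and DESeq2. The co-receptor list had 1 gene called (1 higher) under upper-quartile and RLE scaling, no filter, filterByExpr, DESeq2, both TPM scales and the length trend removed. The causes were not tested. The median of all genes moved from 0.01 to 0.13 with upper-quartile scaling, -0.19 with library totals, and -0.10 and -0.23 on the TPM scales. For single pathway genes these settings were added after the data had been seen. Counts were low for Fgf7, Fgf10, Fgf18, Fgf21 and Fgfr3, at 4 to 112 in all.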
